A study of Saccharomyces cerevisiae with 6 samples.

Results

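RNA levels of the proteasome genes of the budding yeast Saccharomyces cerevisiae were examined in a GCN4 deletion strain and in wild-type FY4. The genes were taken by symbol: PRE, PUP, RPN or RPT followed by digits only, and SCL1. This gave 34 of the 5449 yeast genes measured, each on 1 probe set. They comprise 32 subunits of the proteasome, the transcription factor gene RPN4, and RPN14, which by its symbol falls in the set but encodes an assembly chaperone of the regulatory particle rather than a subunit. Of the 32 subunits, 14 form the core particle (7 in the alpha ring and 7 in the beta ring) and 18 the regulatory particle (6 ATPases and 4 other proteins of the base, 8 of the lid). SEM1, a small lid subunit, lies outside the symbol rule and is given with the proteasome-associated genes.

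The series holds 6 Affymetrix arrays, 3 of the GCN4 deletion strain and 3 of FY4, a wild-type laboratory strain. The product of GCN4 activates genes that make amino acids. Both strains grew at 30 °C in minimal medium with glucose and were harvested in exponential phase. The labels name no parent or construction route for the deletion strain, and give replicate numbers without saying what a replicate is. The p-values therefore measure only the spread between these arrays, which may be technical. GCN4 itself had an intensity of 18.5, 22.3 and 18.1 on the deletion arrays, against 23339, 18826 and 20142 on the wild-type arrays. The deletion values lay below the background levels of their arrays (82.4, 69.6 and 67.9). With the mean background of the deletion arrays in their place, the mean level was still 283-fold lower than in the wild-type.

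The proteasome degrades proteins that carry ubiquitin. Its core particle is a barrel of stacked alpha and beta rings with the proteolytic sites inside, and the regulatory particle on its end binds ubiquitin, removes it, and unfolds the substrate with a ring of ATPases. In yeast, Rpn4 activates the genes of nearly all subunits through a shared promoter element. Rpn4 is itself a very short-lived substrate of the proteasome, so its amount rises when degradation capacity is low. Only RNA was measured here, not Rpn4 protein or proteasome activity.

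RPN4 was clearly higher in the deletion strain, and RPN14 was higher too, whereas the subunit genes differed little. RPN4 RNA was 1.76-fold higher and RPN14 1.37-fold higher. Of the 32 subunit genes, 7 (21.9%) rose by 1.13-fold to 1.26-fold, 0 fell, and 25 did not pass the test. Over all genes the same test called 24.6% higher and 7.67% lower. When the fit also took in the replicate number, 19 subunits (59.4%) were higher, against 35.3% of all genes. That excess depended on the scale of the arrays. With median centring as well, 8 subunits (25%) were higher, against 22.4% of all genes, and with centring alone 3 (9.38%), against 14.3%. The median log2 change of the subunits was 0.16, beside a median of 0.09 over all genes.

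RPN4 had log2 levels of 11.96, 11.97 and 12.10 on the deletion arrays, against 11.14, 11.17 and 11.28 on the wild-type arrays. The lowest deletion array lay well above the highest wild-type array. The log2 change was 0.81 ± 0.06 (SE, n = 3 per group, limma, adjusted p = 0.000271), and its 95% interval ran from 1.58-fold to 1.96-fold, below 2-fold. With the 5449 genes ordered by signed change, the highest rise first, RPN4 was at place 253. It was called under each of the 17 alternative settings run, with an adjusted p of 0.000811 to 0.0022 on leaving out any 1 array and a log2 change of 0.71 after median centring of the arrays.

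RPN14, which helps the ATPase ring of the base to form, had log2 levels of 10.94, 10.87 and 10.77 in the deletion strain, against 10.37, 10.44 and 10.42 in the wild-type. The groups did not overlap. The change was 1.37-fold (95% interval 1.24 to 1.51, adjusted p = 0.00222 by limma), and it too was called under each of the 17 settings. RPN14 was the dimmest of the 34 genes, yet its lowest array lay 3.76 log2 units above that array's background level. All 34 genes lay above background on all 6 arrays.

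**Figure D1:**
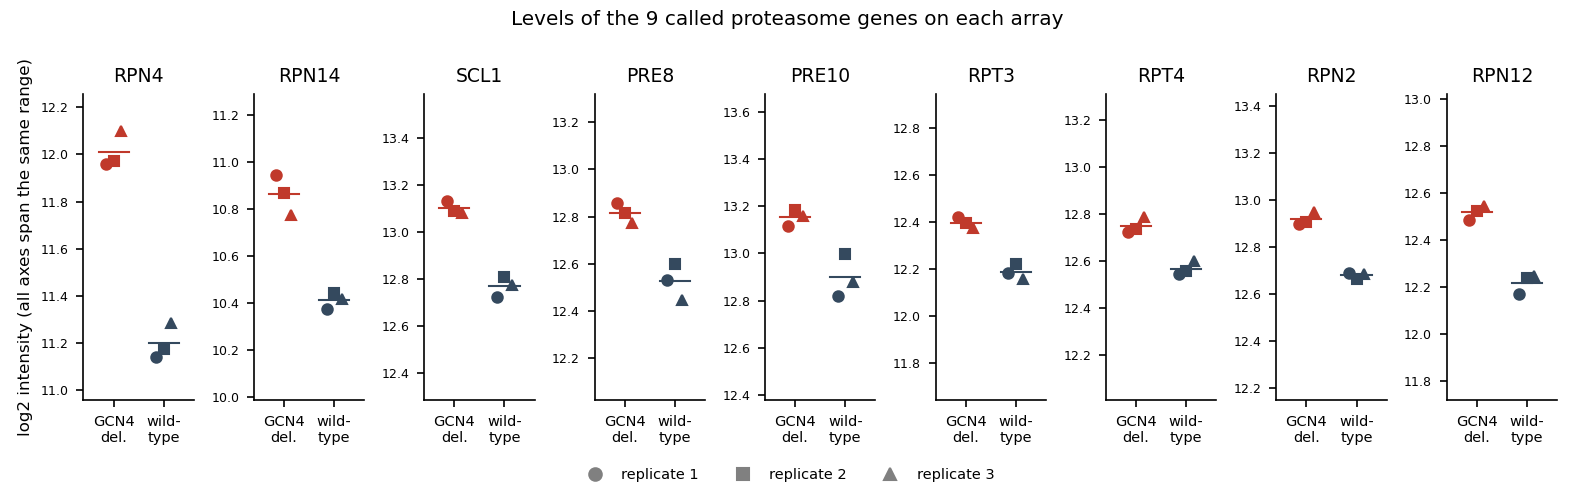
Log2 intensity (vertical axes, each spanning the same range) of RPN4, RPN14 and the 7 called subunit genes on the 3 GCN4 deletion arrays (red, left) and the 3 wild-type arrays (dark, right). Marker shapes give the replicate number and lines the group means; RPN4 shows the widest gap (0.81), and in none of the 9 genes do the groups overlap.

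The 7 subunit calls were 21.9% of the 32 genes. Over all 5449 genes the same test called 24.6% higher and 7.67% lower, so in this unblocked fit the share of subunits called higher was close to the background. The count was 4 without deletion replicate 1, without deletion replicate 2 or without wild-type replicate 1. All 3 deletion arrays lay above all 3 wild-type arrays for 15 of the 32 subunits, where the share over all genes was 34.9%. The changes of the subunits lay close together. They ran from -0.09 to 0.33 on the log2 scale, the middle 50% from 0.11 to 0.23, whereas the middle 50% of all genes ran from -0.05 to 0.24. The changes were above 0 for 30 of the 32 subunits, and for 24 after median centring, which shifted the median change of all genes by -0.10. In both settings 25 of the 32 lay above the median change of all genes. The unadjusted 95% interval of every subunit ended at or below 1.56-fold, and the lower end for RPN4 was 1.58-fold.

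The numbering of the replicates mattered for the count. Same-numbered arrays of both groups deviated together, so the replicate number was also fitted as a block. In that fit 19 of the 32 subunits were higher (59.4%) and 0 lower, against 35.3% higher and 12.2% lower over all genes, so the subunit share lay above the background. With the block and median centring together, a combination chosen after seeing the data, 8 of the 32 were higher (25%) and 1 was lower, against 22.4% higher and 24.2% lower over all genes. With each array centred on its median and no block, 3 subunits were higher (9.38%) and 1 was lower, against 14.3% higher and 12.9% lower over all genes. After centring, all deletion arrays lay above all wild-type arrays for 7 of the 32 subunits, and for 21% of all genes. The fitted sizes stayed small in each case, with a subunit median of 0.16 in the blocked fit and 0.05 after centring.

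**Figure D2:**
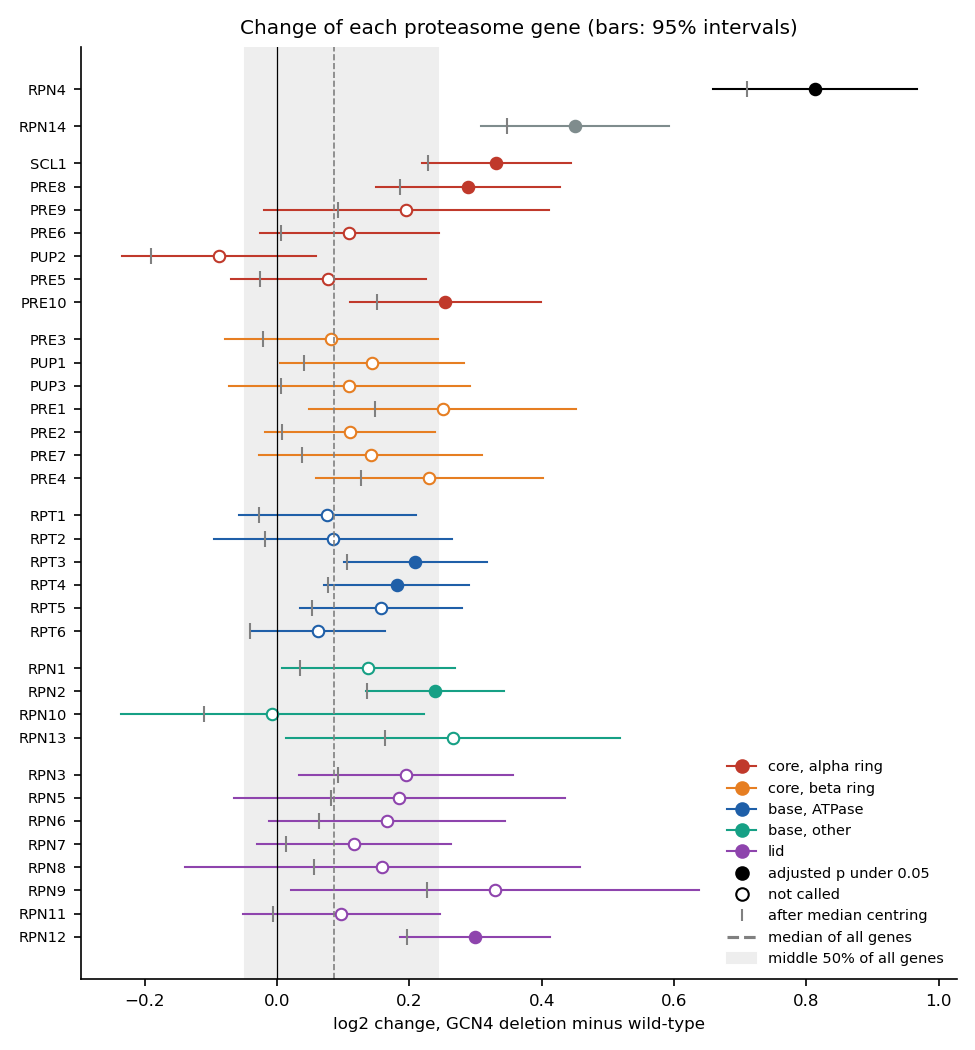
Log2 change (GCN4 deletion minus wild-type, horizontal axis) of the 34 proteasome genes, grouped by role, with unadjusted 95% intervals; filled points have an adjusted p under 0.05, grey ticks give the change after median centring, and the dashed line and band give the median and the middle 50% of all genes. RPN4 and RPN14 stand to the right of every subunit, and most subunits lie inside the band.

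In the core particle, 3 of the 7 alpha ring genes rose and 4 did not pass, beside 24.6% called higher over all genes. Differences in these counts between parts of the proteasome were not tested. The alpha ring gates the entry to the barrel. SCL1, which encodes the first alpha subunit, had log2 levels of 13.13, 13.09 and 13.08 on the deletion arrays, against 12.72, 12.81 and 12.78 on the wild-type arrays. It rose 1.26-fold (adjusted p = 0.00298, limma). PRE8, the second alpha subunit gene, had 12.86, 12.81 and 12.77 in the deletion strain, against 12.53, 12.60 and 12.44 in the wild-type. It rose 1.22-fold (adjusted p = 0.0112). The groups of both genes stood apart, and both were called under all 17 settings. PRE10, the gene of the last alpha subunit, had 13.12, 13.18 and 13.16 in the deletion strain, against 12.82, 13.00 and 12.88 in the wild-type, and rose 1.19-fold (adjusted p = 0.0203). Centring ended that call (adjusted p = 0.112). So did the removal of each single array (0.0505 to 0.0722), with wild-type replicate 2 as the exception (0.0151).

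Of the other alpha ring genes, PRE9 had a log2 change of 0.20 with overlapping groups (adjusted p = 0.147, 0.0134 with the replicate block). PRE9 encodes the alpha subunit that yeast can live without. PRE6 and PRE5 had log2 changes of 0.11 and 0.08, and that of PRE5 was -0.03 after centring. PUP2 was the exception in sign. Its log2 levels were 12.73, 12.73 and 12.64 on the deletion arrays, against 12.81, 12.86 and 12.69 on the wild-type arrays, and the groups overlapped. The log2 change was -0.09 (adjusted p = 0.329), and after centring it was -0.19 and passed (adjusted p = 0.0456), the 1 subunit called lower in that setting.

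In the beta ring, which holds the proteolytic sites, 0 of 7 genes were called by limma, beside 24.6% called higher over all genes. The count was also 0 without variance shrinkage and after median centring, quantile normalization or cyclic loess. It was 3 with array weights, and 1 with dim genes left out or with a pseudocount of 50. Without deletion replicate 3 or wild-type replicate 2 it was 2, and 0 without any other single array. At an unadjusted p under 0.05 the count was 3. With the replicate block 4 were called higher, beside 35.3% over all genes, and 1 with centring as well. The log2 changes lay between 0.08 and 0.25. Of the genes of the 3 catalytic subunits, PRE3 (caspase-like site) had a log2 change of 0.08, PUP1 (trypsin-like site) 0.14 and PRE2 (chymotrypsin-like site) 0.11. Their adjusted p was 0.403, 0.107 and 0.167, and PUP1 passed with the replicate block (adjusted p = 0.0471). For PRE2 the 95% interval of the change was 0.988-fold to 1.18-fold, and for PRE3 0.947-fold to 1.18-fold. Among the non-catalytic beta subunits PRE1 and PRE4 came nearest to a call. PRE4 had log2 levels of 12.84, 12.84 and 12.79 in the deletion strain, against 12.54, 12.73 and 12.50 in the wild-type, without overlap (adjusted p = 0.0502, 0.0208 with the replicate block). PRE1 had 13.09, 13.18 and 12.95 in the deletion strain, against 12.75, 12.95 and 12.77 in the wild-type (adjusted p = 0.0643, 0.0106 with the block). PUP3 and PRE7 had log2 changes of 0.11 and 0.14, of which PRE7 passed with the block (adjusted p = 0.0467).

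In the base of the regulatory particle, 2 of the 6 ATPase genes rose, beside 24.6% called higher over all genes. RPT3 had log2 levels of 12.42, 12.40 and 12.37 on the deletion arrays, against 12.18, 12.22 and 12.16 on the wild-type arrays, a rise of 1.16-fold (adjusted p = 0.0142, limma). RPT4 had 12.72, 12.73 and 12.79 in the deletion strain, against 12.55, 12.56 and 12.60 in the wild-type, a rise of 1.13-fold (adjusted p = 0.0259). Arrays of one group lay close together for both genes, and the groups stood apart. Both calls were lost after centring (adjusted p of 0.162 for RPT3 and 0.382 for RPT4) and after quantile normalization (0.0754 and 0.176). RPT3 also lost its call when deletion replicate 1 or 2 or wild-type replicate 1 was removed (0.0515 to 0.0598), and RPT4 without each array in turn (0.0632 to 0.094), except wild-type replicate 3 (0.0463). RPT5 had a log2 change of 0.16 (adjusted p = 0.0583, 0.0275 with the block). RPT1, RPT2 and RPT6 had changes of 0.08, 0.08 and 0.06, each turning slightly negative after centring (-0.03, -0.02 and -0.04). The groups of RPT1 and RPT2 overlapped in both settings. For RPT6 all deletion arrays lay above all wild-type arrays as deposited, and all lay below them after centring. It was called in neither (limma, adjusted p of 0.316 and 0.606). RPT6 was the least variable gene of the set, with a pooled SD between arrays of 0.017, and its interval ended at 1.12-fold.

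Of the other base genes, RPN2, which encodes a large scaffold protein, had log2 levels of 12.90, 12.90 and 12.95 in the deletion strain, against 12.69, 12.66 and 12.68 in the wild-type. It rose 1.18-fold (adjusted p = 0.00768), a call kept on leaving out any array and lost after centring (adjusted p = 0.126). RPN1, the other scaffold, had a log2 change of 0.14 (adjusted p = 0.101, 0.0332 with the block). The genes of the ubiquitin receptors Rpn10 and Rpn13 did not pass. RPN10 had log2 levels of 12.25, 12.25 and 12.03 on the deletion arrays, against 12.24, 12.28 and 12.03 on the wild-type arrays. The arrays numbered 3 were the low ones in both groups, and the change was -0.01 with an interval of 0.849-fold to 1.17-fold. RPN13 had 12.57, 12.64 and 12.44 in the deletion strain, against 12.24, 12.48 and 12.13 in the wild-type (adjusted p = 0.102, 0.0111 with the block).

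In the lid, which removes ubiquitin chains, RPN12 rose and 7 of 8 genes did not pass, beside 24.6% called higher over all genes. RPN12 had log2 levels of 12.49, 12.52 and 12.55 on the deletion arrays, against 12.17, 12.24 and 12.25 on the wild-type arrays. The change was 1.23-fold (adjusted p = 0.0045), and it was called under all 17 settings. RPN9 had a larger log2 change, 0.33 against 0.30 for RPN12, but its arrays spread more widely. Its log2 levels were 12.49, 12.77 and 12.80 in the deletion strain, against 12.13, 12.44 and 12.49 in the wild-type, so that deletion replicate 1 lay just within the wild-type range. It passed with the replicate block (adjusted p = 0.00249) and not without it (adjusted p = 0.0978). RPN3, RPN5 and RPN8 also passed only with the block in the comparison of these fits (adjusted p of 0.0125, 0.0137 and 0.0264, against 0.0698, 0.228 and 0.382 without it). RPN11, the gene of the deubiquitinating enzyme of the lid, had a log2 change of 0.10 (adjusted p = 0.283), RPN6 of 0.17 and RPN7 of 0.12.

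The core and the regulatory particle did not separate by strain. The core had a median log2 change of 0.14 and the regulatory particle of 0.16, with 3 of 14 and 4 of 18 genes called higher. These shares were 21.4% and 22.2%, near the 24.6% over all genes. The difference between the medians, -0.02, was smaller than the spread between arrays, and it was 0.07 without deletion replicate 3. On single arrays the core median, taken as deviations from each gene's mean over the 6 arrays, lay 0.06 and 0.04 above that of the regulatory particle on deletion replicates 1 and 2 and 0.11 below it on replicate 3 (-0.11). On wild-type replicates 1 and 2 it lay 0.0015 and 0.06 above, and on replicate 3 the difference was -0.08.

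The medians of the core genes and of the 8 lid genes in the symbol rule deviated in opposite directions on the arrays numbered 3 of both strains. The base did not move as one part. On replicate 3 its ATPase median lay above the group mean (0.04 in the deletion strain, 0.02 in the wild-type). The median of its 4 other genes lay below (-0.04 and -0.07). SEM1, the lid subunit outside the rule, was lowest on both arrays numbered 3 (11.58 and 11.42). The 14 core genes were lowest on deletion replicate 3 in 11 cases and on wild-type replicate 3 in 8 cases. They were highest on deletion replicate 2 in 8 cases and on deletion replicate 1 in 6, whereas all 14 were highest on wild-type replicate 2. On replicate 1 the core median deviated by 0.02 in the deletion strain and by -0.04 in the wild-type. The 8 lid genes were lowest on deletion replicate 1 in 7 cases and on wild-type replicate 1 in all 8. On replicate 3 the lid median lay 0.07 above the group mean in the deletion strain and 0.08 above it in the wild-type, while the core median lay 0.05 and 0.06 below (-0.05 and -0.06). The corresponding medians over all genes stayed between -0.01 and 0.01, but single genes outside the set moved with the number too. Over all genes, the deviations of same-numbered arrays correlated between the strains (r of 0.69, 0.53 and 0.71). Of the pathway genes listed below, POC4 and UBC5 were lowest on both arrays numbered 3, and HSM3 was highest on both. Shared deviations were thus not limited to the proteasome genes. The blocked fit takes out what same-numbered arrays share. The origin of these deviations was not tested, and the labels do not say what a number marks.

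**Figure D3:**
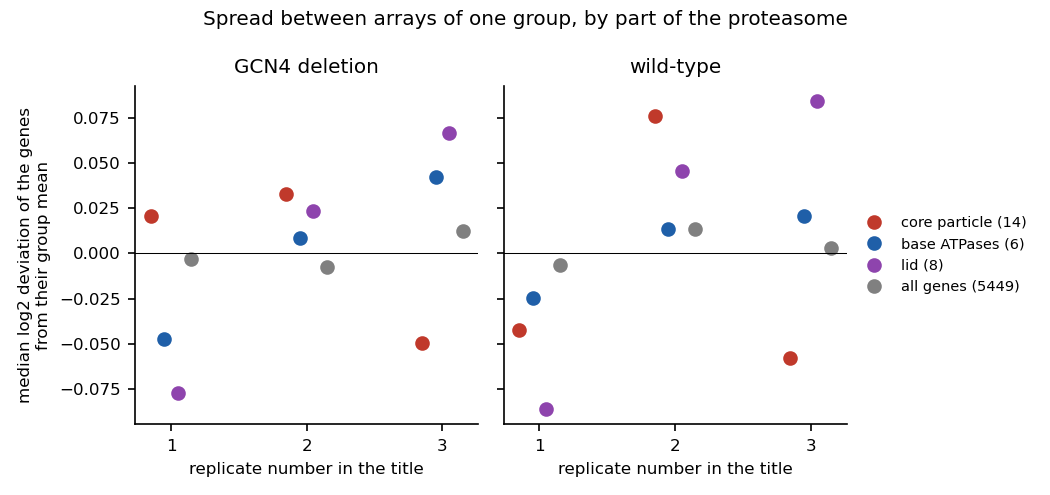
Median log2 deviation from the group mean (vertical axis) on each array (horizontal axis: replicate number) for the 14 core genes, the 6 base ATPase genes, the 8 lid genes and all 5449 genes, GCN4 deletion left and wild-type right. On the arrays numbered 3 the core lies below 0 (-0.05 and -0.06) and the lid above it (0.07 and 0.08) in both strains. The 4 other base genes and SEM1 are not shown.

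Relative to the subunits, RPN4 was shifted as a whole. Its deviation from the mean over the 6 arrays lay 0.30, 0.26 and 0.41 above the subunit median on the deletion arrays, against -0.35, -0.40 and -0.25 on the wild-type arrays. This difference is taken within each array and does not depend on centring.

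Genes known to control Rpn4 were listed as its regulators. Pdr1, Pdr3, Yap1 and Hsf1 are activators of RPN4 transcription, and Ubr2 with Mub1 forms the ubiquitin ligase that marks Rpn4 for degradation. Of these 6 genes 2 rose, PDR1 and HSF1. Over all genes 24.6% rose, and 14.3% after centring, when the same 2 of 6 were called. PDR1, a zinc cluster activator of drug resistance genes, had log2 levels of 11.58, 11.60 and 11.65 in the deletion strain, against 11.29, 11.26 and 11.27 in the wild-type, a rise of 1.26-fold (adjusted p = 0.00224, limma). HSF1, the heat shock factor gene, had 10.76, 10.68 and 10.75 in the deletion strain, against 10.37, 10.33 and 10.33 in the wild-type, a rise of 1.31-fold (adjusted p = 0.00176). Both were called under all 17 settings. YAP1, an oxidative stress activator gene, had a log2 change of 0.23 without overlap of the groups (adjusted p = 0.0599, 0.0187 with the block). PDR3, UBR2 and MUB1 had changes of 0.05, -0.07 and 0.06 and did not pass. After centring these were -0.05, -0.17 and -0.04, and UBR2 passed as lower after quantile normalization (adjusted p = 0.0469).

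Across 6 lists of the wider ubiquitin-proteasome pathway, 54 genes in all with these regulators, 15 rose, 1 fell and 38 did not pass. Of all genes 24.6% rose and 7.67% fell. The median log2 change of the 54 genes was 0.11, or 0.01 after centring. After centring 7 of the 54 were higher and 4 lower, against 14.3% higher and 12.9% lower over all genes.

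The share called higher over all genes, 24.6%, stands beside the counts of each list below. Among the 9 listed assembly factors only PBA1, a chaperone gene of the alpha ring, rose, by 1.20-fold (limma, adjusted p = 0.00597, 0.0764 after centring). RPN14, also an assembly chaperone gene, is not in this list and rose 1.37-fold, as given above. SEM1, the small lid subunit outside the symbol rule, had log2 levels of 12.19, 12.22 and 11.58 on the deletion arrays, against 11.97, 12.28 and 11.42 on the wild-type arrays. The groups overlapped, the change was 0.11 (adjusted p = 0.692), and both arrays numbered 3 were low. Of the 8 proteasome-associated genes, with SEM1 among them, 3 rose. SPG5, whose product binds the proteasome in stationary phase, rose 1.30-fold (adjusted p = 0.00168). It was called in every setting run, with a log2 change of 0.38 as deposited and 0.28 after centring (adjusted p = 0.0152). UBP6, a deubiquitinating enzyme gene, rose 1.17-fold (adjusted p = 0.0277) and HUL5, a ubiquitin ligase gene, 1.15-fold (adjusted p = 0.0446). Centring ended both of these calls (adjusted p of 0.199 and 0.28). With 1 array removed, both held only when that array was wild-type replicate 2 (otherwise 0.0627 to 0.0937 for UBP6 and 0.0823 to 0.139 for HUL5). Of 9 shuttle and Cdc48 genes 3 rose, namely UFD1 by 1.26-fold, NPL4 by 1.17-fold and DDI1 by 1.17-fold. Ufd1 and Npl4 are the partners of Cdc48 in extracting ubiquitinated proteins, and Ddi1 is a shuttle protein. None of these 3 calls held after centring (adjusted p of 0.0961 to 0.196). With 1 array removed, UFD1 held only without deletion replicate 3 (otherwise up to 0.119) and DDI1 only without wild-type replicate 2 (otherwise up to 0.115). NPL4 lost its call without deletion replicate 1 (0.0684) or wild-type replicate 1 (0.0691).

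Of 12 ubiquitin and conjugating enzyme genes 3 rose, beside 24.6% called higher over all genes. CDC34, a conjugating enzyme of cell cycle ligases, had log2 levels of 12.17, 12.06 and 12.30 on the deletion arrays, against 11.78, 11.67 and 11.64 on the wild-type arrays, and rose 1.40-fold (adjusted p = 0.00451). UBI4, the polyubiquitin gene, had 12.84, 12.90 and 12.89 in the deletion strain, against 12.34, 12.58 and 12.53 in the wild-type, and rose 1.32-fold (adjusted p = 0.0082). Ubiquitin repeats also occur in other genes, and whether the probes tell them apart was not tested. UBC4, which has a near-identical partner in UBC5, rose 1.17-fold (adjusted p = 0.0265, 0.138 after centring, and 0.0705 to 0.0907 without deletion replicate 1 or 2 or wild-type replicate 1 or 3).

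Of 10 ubiquitin ligase genes 3 were higher (30%) and 1 was lower (10%), shares close to the 24.6% and 7.67% over all genes. ASI3, a ligase of the inner nuclear membrane, had log2 levels of 11.98, 11.97 and 12.02 in the deletion strain, against 11.33, 11.33 and 11.45 in the wild-type, and rose 1.54-fold (adjusted p = 0.000369). UFD4, of the ubiquitin fusion degradation pathway, rose 1.32-fold (adjusted p = 0.00251). RSP5, the essential ligase of membrane protein sorting, had 12.41, 12.46 and 12.60 in the deletion strain, against 12.95, 13.00 and 12.98 in the wild-type, and fell 1.41-fold (adjusted p = 0.00205). The groups of these 3 genes stood apart and all 3 were called under all 17 settings.

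**Figure D4:**
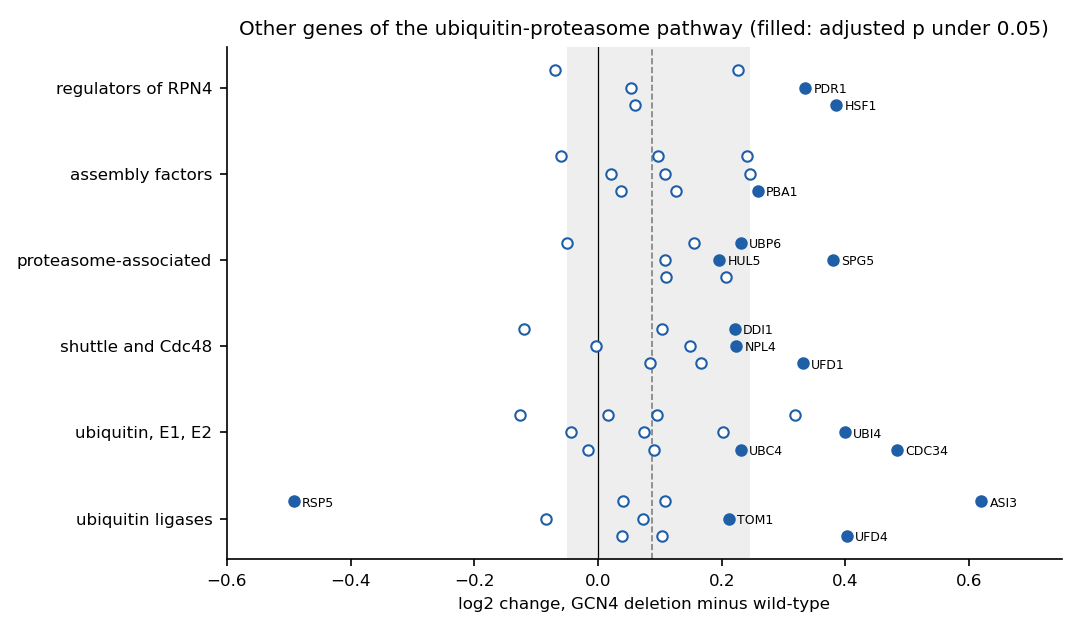
Log2 change (GCN4 deletion minus wild-type, horizontal axis) of the 54 genes of 6 pathway lists (rows); filled, named points have an adjusted p under 0.05, and the dashed line and band give the median and the middle 50% of all genes. Of the 16 called genes RSP5 alone lies left of 0, and ASI3 lies farthest to the right.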

How the data were processed

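Total RNA of 6 samples was copied to cDNA, transcribed with biotin-labelled nucleotides and measured on Affymetrix arrays, per the labels' protocols. The deposited values are normalised probe set intensities on a linear scale. The submitters' processing notes name R 2.8.0, affy and RMA, with no role or order. Log2 was taken here with no pseudocount. Probe sets were named by the platform annotation, with symbols updated by gene identifier through the R64 gene table. For the 47 genes with several probe sets the one with the highest mean was used. Background was the 95th percentile of the 1746 other-species probe sets of an array. The median intensity of the 5449 genes was 2281 to 2341 on the deletion arrays and 2112 to 2206 on the wild-type arrays. The number of arrays limits the precision.

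Groups and replicate numbers came from the titles. Expression was compared over all genes with limma 3.58.1 in R 4.3.3 (deletion minus wild-type, two-sided, Benjamini-Hochberg adjustment, threshold 0.05), checked on simulated data. The simulated noise was independent between arrays and genes, so the check does not cover deviations that same-numbered arrays share. This main fit did not pair the arrays. Arrays of the same number deviated together from their group means (r of 0.69, 0.53 and 0.71). An alternative fit, the replicate block, therefore took the numbers as pairs, as a hint from the data. Values not marked as blocked are unpaired. Arrays correlated across genes with r of 0.988 to 0.996 within a group. All members are named, with up to 3 called genes of each pathway list and all regulators of RPN4. Members and lists were chosen with earlier results of these data known. The planned promoter motif search was not run, since no genome sequence was used here. Alternatives covered scaling, a filter on dim genes, probe set choice, pseudocount, test, array weights, block and leaving out arrays. Figures were drawn with matplotlib 3.10.9.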

Additional observations from a re-analysis of the deposited data

How the results depend on the processing

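The number of subunits called higher, 7, became 3 after median centring, 3 when every non-control probe set entered the fit (where 1061 of the 5449 genes were called), 13 with array weights, 19 with the replicate block, 8 with the block and centring together, and 4 to 9 on leaving out 1 array. The count of subunits called lower, 0, became 1 after centring, with or without the replicate block. The medians of all subunits, core and regulatory particle became 0.05, 0.04 and 0.06 after centring (also with the block, a combination chosen after seeing the data), 0.08, 0.07 and 0.09 after quantile normalization, and 0.11 for all subunits after cyclic loess. Core minus regulatory particle ranged from -0.07 to 0.07 over left-out arrays. Signs turned, in genes not called either way, after centring (with or without the block) for PRE5 (-0.03), PRE3 (-0.02), RPT1 (-0.03), RPT2 (-0.02), RPT6 (-0.04), RPN11 (-0.01), PDR3 (-0.05) and MUB1 (-0.04). They also turned after quantile normalization for PRE5 (-0.0002), RPT6 (-0.02), PDR3 (-0.14) and MUB1 (-0.06), after cyclic loess for PDR3 (-0.07) and MUB1 (-0.03), and for RPN10 with array weights (0.01) and over left-out arrays (-0.08 to 0.07). The causes were not tested. All members lay above background on all 6 arrays.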

Other observations

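Members of the set lie close to each other at 3 places in the gene order of the R64 assembly. PRE4 and RPN12, on chromosome VI, have 1 protein-coding gene between them and had log2 changes of 0.23 and 0.30. RPT4 and RPN8, on chromosome XV, also have 1 gene between them, with changes of 0.18 and 0.16. PRE2 and RPN7, on chromosome XVI, have 4 genes between them, with changes of 0.11 and 0.12. Whether neighbouring members are closer in change than other members was not tested.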
